A study of Homo sapiens with 15 samples.

Results

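The promoters described here were windows from 500 bp before to 500 bp after the start of each of the 20098 protein-coding genes that GENCODE 44, lifted to hg19, places on chromosomes 1 to 22 and X. They were chosen by annotation alone, and together they covered 18.7 Mb, or 0.660% of these chromosomes. K562 is an established line from a human chronic myeloid leukemia with an erythroid character, labelled WT, and a single line of cells was the source of all samples. Formaldehyde-crosslinked nuclei were opened with SDS and heat and received no P1 (the untreated samples) or 0.01, 0.1, 1 or 10 U of nuclease P1, with 3 biological replicates each and thus 15 samples. P1 cuts single-stranded DNA and, with much lower activity, double-stranded DNA, and leaves 3′-OH ends. The paper reports visible degradation of the genomic DNA at the highest amount of nuclease only. It proposes these samples as a further negative control, in which single-stranded regions would be degraded or depleted. How far the values at 10 U below reflect either effect was not tested. SSiNGLe-P1 reads the position and strand of 3′-OH ends. Each sample thus holds the breaks already present in the nuclei together with those that P1 made. A site below is 1 genomic position on 1 strand with at least 1 such end, and each sample had 2046116 to 3859475 sites on these chromosomes. Of the 39213030 sites of all samples, 494766 lay in promoter windows. Most promoters had few of them, with a median of 25 over all 15 samples and no site at all in 525 windows, so most values below are sums over groups of promoters.

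A promoter is where RNA polymerase and its general factors assemble and where the strands first open for transcription. Active promoters usually have a stretch without nucleosomes just before the start and a well-placed nucleosome just after it. Most promoters of genes that every cell uses lie in CpG islands, stretches rich in unmethylated CpG, whereas many tissue-restricted genes start in CpG-poor sequence. The template strand is the one the polymerase reads, and the non-template strand has the sequence of the RNA.

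A few promoters show what such data look like, and 200 bases of each are given here 5′ to 3′ on the strand of the gene, from hg19. Capitals mark positions that had a site on either strand in any of the 12 samples without P1 or with 0.01 to 1 U. BPGM (bisphosphoglycerate mutase, which makes the red cell's regulator of oxygen release; chr7:134331363-134331562, plus strand) and B3GALNT2 (a glycosyltransferase of dystroglycan; chr1:235667753-235667952, minus strand) are shown because their windows held no site at 10 U. HFE (the hemochromatosis protein, which acts in iron balance; chr6:26087309-26087508, plus strand) held 1. NUP214 (a nuclear pore protein; chr9:134000760-134000959, plus strand) is shown as the promoter with the most sites. All 4 stretches run from position −200 to −1, whereas that of PARP2 (a DNA repair enzyme that is activated by breaks; chr14:20811324-20811523, plus strand) runs from −450 to −251, where its sites were crowded.
BPGM: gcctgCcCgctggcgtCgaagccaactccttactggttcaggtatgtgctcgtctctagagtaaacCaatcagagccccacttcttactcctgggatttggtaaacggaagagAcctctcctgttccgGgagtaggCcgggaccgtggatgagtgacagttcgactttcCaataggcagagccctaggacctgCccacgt
B3GALNT2: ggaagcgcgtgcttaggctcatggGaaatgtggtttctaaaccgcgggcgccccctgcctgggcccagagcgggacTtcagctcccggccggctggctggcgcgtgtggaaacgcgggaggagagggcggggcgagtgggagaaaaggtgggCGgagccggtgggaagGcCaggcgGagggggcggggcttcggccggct
HFE: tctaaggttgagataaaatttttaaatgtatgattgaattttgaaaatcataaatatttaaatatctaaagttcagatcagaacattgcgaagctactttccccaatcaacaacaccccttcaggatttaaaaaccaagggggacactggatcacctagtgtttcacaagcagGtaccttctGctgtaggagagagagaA
NUP214: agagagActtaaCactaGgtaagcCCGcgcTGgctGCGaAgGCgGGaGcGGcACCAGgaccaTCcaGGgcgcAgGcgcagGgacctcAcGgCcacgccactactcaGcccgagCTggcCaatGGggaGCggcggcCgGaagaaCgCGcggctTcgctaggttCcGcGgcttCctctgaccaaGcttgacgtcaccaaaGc
PARP2: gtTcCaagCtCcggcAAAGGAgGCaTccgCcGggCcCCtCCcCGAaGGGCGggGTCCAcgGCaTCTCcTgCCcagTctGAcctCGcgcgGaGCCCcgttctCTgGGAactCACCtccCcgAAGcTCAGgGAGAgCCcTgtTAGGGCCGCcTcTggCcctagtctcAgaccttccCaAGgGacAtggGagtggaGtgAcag
BPGM had 9 such positions in its 200 bases and B3GALNT2 had 7, while HFE had 3 here and the rest of its sites elsewhere in the window. NUP214 had 54 and PARP2 97.

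Promoters held more sites per kb than the rest of the genome, and this excess was lower with 1 U and lowest with 10 U of P1. The density in promoters over that in the rest of the genome was 2.03, 2.09 and 2.12 in the untreated samples. It was 2.10, 2.11 and 1.99 with 0.01 U and 2.09, 2.08 and 2.01 with 0.1 U, which overlapped the untreated values. It was 1.80, 1.90 and 1.84 with 1 U and 1.54, 1.65 and 1.51 with 10 U, so both groups lay wholly below the untreated samples and 10 U below 1 U. The mean thus went from 2.08 ± 0.0498 (SD, n = 3) to 1.56 ± 0.0736 (SD, n = 3), a factor of 0.751 with 10 U and 0.887 with 1 U, each lower in 3 of 3 replicates. The 5 amounts differed by an exact permutation test within replicate numbers (adjusted p = 0.00517 over 12 tests). Single amounts against untreated cannot be tested this way, since 3 pairs allow no p below 0.25. All densities are relative to the sites of the sample, so fewer sites at promoters and more sites elsewhere cannot be told apart.

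The density was also set against the flanks of each promoter, 1 kb windows centred 5000 bp before and after the start. The promoter density over that of the flanks was 1.47 ± 0.0171 (SD, n = 3) without P1, 1.48 ± 0.0320 with 0.01 U, 1.44 ± 0.00972 with 0.1 U, 1.30 ± 0.00803 with 1 U and 1.07 ± 0.0190 with 10 U (exact permutation test, adjusted p = 0.00333). Here the values with 0.1 U also lay below the untreated ones in 3 of 3 replicates (highest 1.449, against a lowest untreated value of 1.454). Windows of 1 kb around the 3′ ends of the same genes served as the comparison. Their density over the flanks went only from 0.968 ± 0.00547 (SD, n = 3) to 0.948 ± 0.0156, a factor of 0.979 (exact permutation test, adjusted p = 0.00926), which did not pass with all termini (0.989) and turned to 1.003 with sites of at least 2 termini. The promoter density over the 3′ end density was 1.46 without P1 and 1.09 with 10 U, a factor of 0.748 lower in 3 of 3 replicates, and the test of this ratio over the 5 amounts passed (exact permutation test, adjusted p = 0.00417).

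**Figure D1:**
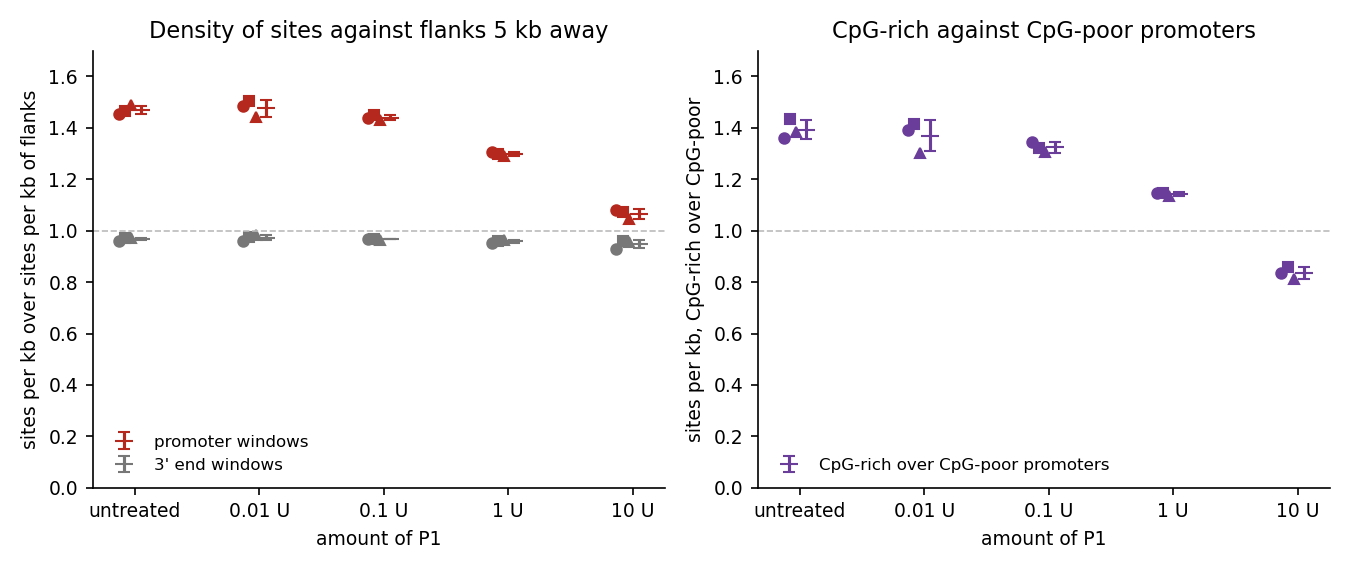
Left, sites per kb in promoter windows (red) and in windows around the 3′ ends of the same genes (grey) over sites per kb of flanks 5000 bp away; right, sites per kb of CpG-rich over CpG-poor promoters. The x axes give the amount of P1; circles, squares and triangles are replicates 1, 2 and 3, and crosses with bars are the mean and SD. The promoter values fall from about 1.47 to 1.07 and the CpG ratio from 1.39 to 0.836, while the 3′ ends stay between 0.930 and 0.985.

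Set against their sequence, promoters as a whole showed little excess without P1, but the CpG classes defined below went opposite ways. Treated samples and untreated samples alike had ends mostly at C and G: 84.1% to 86.0% of untreated promoter sites ended on C or G, against 57.9% of promoter positions. This was not particular to promoters, since 75.7% to 79.2% of untreated sites in the rest of the genome did so too. When the number of sites was set against that expected from the 4 bases around each position and from the authors' filter on T-rich sequence, with rates from the rest of the genome, promoters had 0.973 ± 0.0393 (SD, n = 3) of the expected sites without P1 and 0.849 ± 0.0310 with 10 U. By class, summed over windows, the untreated value was 0.860 ± 0.0404 (SD, n = 3) in CpG-rich promoters, 1.28 ± 0.0763 in those in between and 1.20 ± 0.0272 in CpG-poor ones, and with 10 U it was 0.653, 1.04 and 1.26. Against 1 kb bins of the rest of the genome with the same G+C percent, the ratio was 1.10 ± 0.0803 (SD, n = 3) without P1 and 0.788 ± 0.0110 with 10 U. Of 10 bins of G+C from 30% to under 80%, 8 were lower with 10 U in 3 of 3 replicates. The factors were 0.881, 1.01, 0.947 and 0.898 in the bins from 30%, 35%, 40% and 45%, and lay between 0.641 (65% to under 70%) and 0.848 (75% to under 80%) in the 6 bins from 50% on. The share of C and G ends at promoters, relative to the positions, was 1.46 without P1 and 1.43 with 10 U, a factor of 0.978 and lower in 3 of 3 replicates (exact permutation test, adjusted p = 0.0240).

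The drop was seen in CpG-rich promoters and not in CpG-poor ones. CpG-rich here means an observed over expected CpG ratio of at least 0.6 with a G+C of at least 0.55 (10479 promoters), and CpG-poor a ratio under 0.4 (5867 promoters), with 3752 in between. CpG-rich promoters held 0.815 ± 0.0209 (SD, n = 3) sites per promoter (as sites per 1000000 sites of the sample) without P1 and 0.506 ± 0.0313 with 10 U, a factor of 0.620. CpG-poor promoters held 0.585 ± 0.0113 and 0.605 ± 0.0210, a factor of 1.03, and those in between had a factor of 0.735. CpG-rich over CpG-poor density was 1.36, 1.43 and 1.38 in the untreated samples, 1.39, 1.42 and 1.30 with 0.01 U, 1.35, 1.32 and 1.30 with 0.1 U, 1.15, 1.15 and 1.14 with 1 U and 0.835, 0.859 and 0.813 with 10 U, so the order of both classes turned round at 10 U. Apart from 0.01 U, no groups overlapped, and each amount lay below the one before, and the spread over the 5 amounts passed (factor of 0.6003 at 10 U, exact permutation test, adjusted p = 0.00333). Set against the sites expected from sequence, the ratio was 0.714 without P1 and 0.517 with 10 U, so on that scale CpG-rich promoters were the lower class throughout. The 3526 promoters whose window touched another promoter, as in genes that start back to back, had the highest untreated value of these classes, 0.975 ± 0.050 (SD, n = 3) scaled sites per promoter, and a factor of 0.625 at 10 U.

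Around the start itself, CpG-rich promoters held far fewer sites at 10 U than without P1. From −100 to −1 the density was 0.848 ± 0.0617 (SD, n = 3) scaled sites per kb without P1, 0.863 with 0.01 U, 0.816 with 0.1 U, 0.590 with 1 U and 0.275 ± 0.0360 with 10 U, which is 0.322 of the untreated density and rests on 7245 and 2417 sites. From +1 to +100 it went from 0.881 to 0.332 and from −200 to −101 from 0.872 to 0.431. In the outer parts of the window the difference was much smaller, with factors of 0.749 from −500 to −301 and 0.779 from +301 to +500. The lowest 50 bp bin at 10 U was −50 to −1, with 0.255. The density was higher again at +101 to +150, with 0.602, was 0.441 at +201 to +250 and 0.614 at +301 to +350. The untreated samples had the opposite relief, with 0.926 at +1 to +50, a low of 0.705 at +101 to +150 and 0.803 at +201 to +250. The bin at +101 to +150 was thus the one that lost least within 300 bp of the start, from 0.705 to 0.602.

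The density within 100 bp of the start over that from 301 to 500 bp away gives this trough as 1 value per sample. In CpG-rich promoters it was 1.02, 1.14 and 1.11 without P1, 0.968, 0.841 and 0.779 with 1 U and 0.537, 0.500 and 0.466 with 10 U. All values at 10 U lay below all others (factor of 0.459, exact permutation test, adjusted p = 0.00479). In CpG-poor promoters, where the untreated density had a mild maximum of 0.701 at +1 to +50, the ratio went from 1.19 ± 0.0196 (SD, n = 3) to 1.04 ± 0.00628 (factor of 0.878, exact permutation test, adjusted p = 0.00583). The ratio of both classes differed over the 5 amounts, with a factor of 0.522 at 10 U (exact permutation test, adjusted p = 0.00528). Against the sites expected from sequence, the CpG-rich stretch from −100 to −1 held 0.768 ± 0.0723 (SD, n = 3) of the expected number without P1 and 0.317 ± 0.0347 with 10 U.

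**Figure D2:**
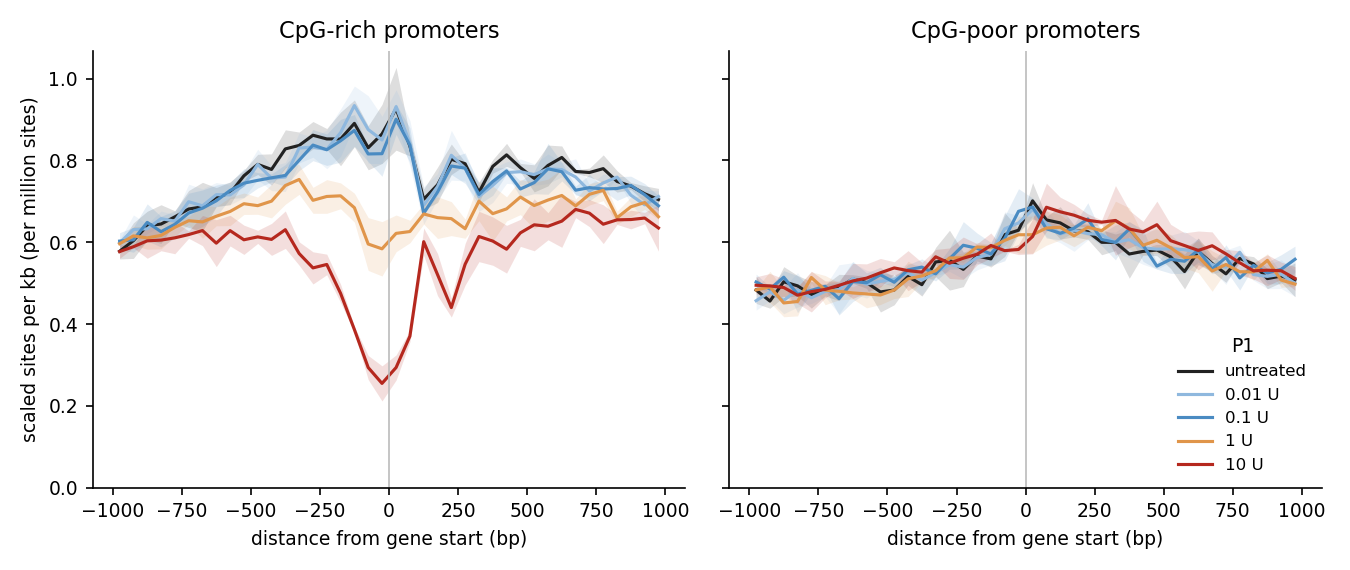
Scaled sites per kb in 50 bp bins by distance from the gene start, for CpG-rich (left) and CpG-poor (right) promoters; lines are means of 3 replicates, bands 1 SD, and colours the amount of P1. In CpG-rich promoters the 10 U line dips to 0.255 just before the start and the 1 U line to 0.584, where the untreated line stands at 0.865, while the lines of CpG-poor promoters lie together.

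Breaks were not shared evenly between the strands, and without P1 the bias in CpG-rich promoters had opposite signs shortly before and just after the start. In CpG-rich promoters without P1, the non-template strand held 1.38 ± 0.0563 (SD, n = 3) times as many sites as the template strand from −200 to −101. From +1 to +100 the ratio was 0.826 ± 0.0646, so there the template strand held more. Further downstream the sign turned again. From +151 to +200 the template strand held 0.339 of 0.740 scaled sites per kb, less than the non-template strand. From +201 to +250 it held 0.372 of 0.803, again less, and from +251 to +300 0.416 of 0.792, which was more. With 10 U the ratio from −200 to −101 was 1.41 ± 0.0609, within the spread of the untreated samples. From +1 to +100 it was 1.08 ± 0.0989 with 10 U and higher than without P1 in 3 of 3 replicates. These zones were not among the planned results and had no test of their own. With the bases and the filter on T-rich sequence taken into account, the untreated ratios from −200 to −101 and from +1 to +100 were 1.36 and 0.832. In CpG-poor promoters the same zones had 0.947 ± 0.0371 (SD, n = 3) and 0.880 ± 0.0338 without P1, both below 1, so the sign did not differ between them. Over the whole upstream arm of all promoters the ratio was 1.05 ± 0.0172 (SD, n = 3) without P1, 1.05 ± 0.0127 with 0.01 U, 1.08 ± 0.0142 with 0.1 U, 0.998 ± 0.0246 with 1 U and 1.05 ± 0.0220 with 10 U, and over the downstream arm 0.956, 0.985, 0.988, 1.01 and 1.03. The spread over the amounts passed in both arms (exact permutation tests, adjusted p = 0.00967 and 0.0240), with the upstream value higher than without P1 in 3 of 3 replicates at 0.1 U and lower in 3 of 3 at 1 U. Neither arm passed without replicate 2 or 3, with sites of at least 2 termini or at equal depth, and the downstream arm did not pass with windows of 1000 bp on either side.

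**Figure D3:**
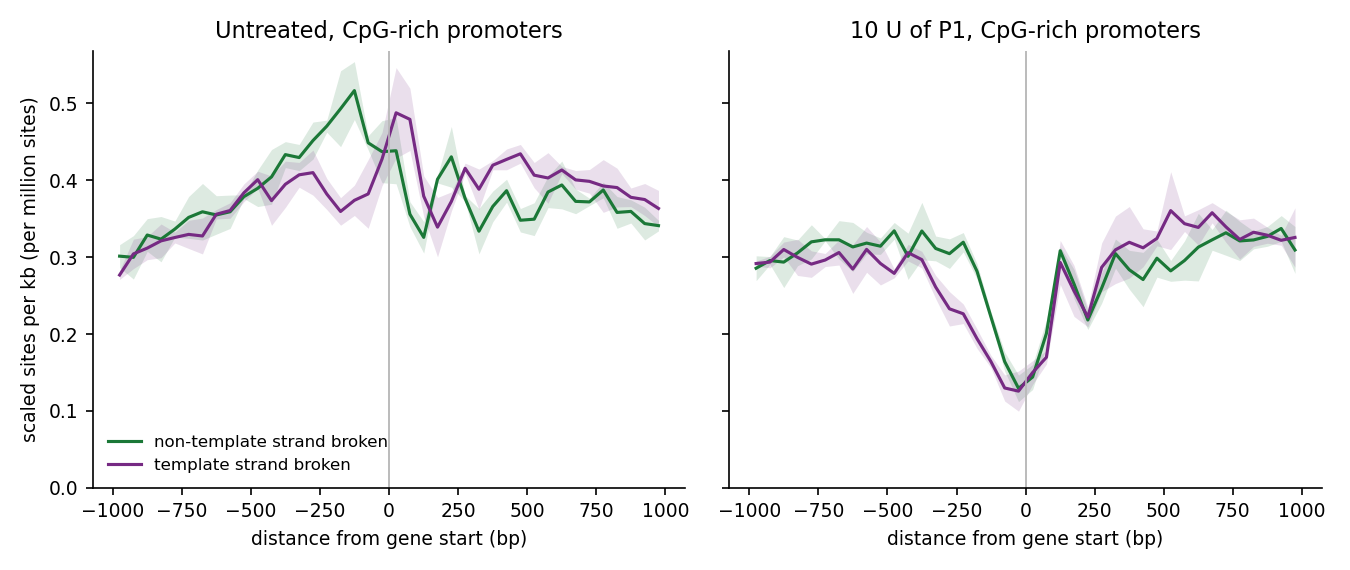
Scaled sites per kb by distance from the start of CpG-rich promoters, split by the broken strand (green, non-template; purple, template), without P1 (left) and with 10 U (right); lines are means of 3 replicates and bands 1 SD. Without P1 the non-template line peaks at 0.517 before the start and the template line at 0.488 after it, and with 10 U both lie near 0.13 at the start.

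Promoters of 4 gene families that every cell uses held 1.07 to 1.19 scaled sites per promoter without P1 and 0.571 to 0.706 with 10 U, where all promoters held 0.748 and 0.552. Promoters of 84 cytosolic ribosomal protein genes held 1.10 ± 0.0461 (SD, n = 3) scaled sites per promoter without P1 and 0.706 ± 0.0589 with 10 U, a factor of 0.638. The 77 mitochondrial ribosomal protein genes, the 39 proteasome subunits and the 37 subunits of complex I, the entry point of the respiratory chain, had factors of 0.538, 0.532 and 0.570. Each was lower in 3 of 3 replicates, while all promoters together had a factor of 0.738 and CpG-rich ones 0.620. The 63 replication-dependent histone genes, which are expressed in S phase, had the highest untreated value of the lists, 1.38 ± 0.202 (SD, n = 3), and 0.759 ± 0.118 with 10 U. The 43 replication factors (factor of 0.677), the 476 zinc finger genes (0.669) and the 19 immediate early and heat shock genes (0.576) were also lower in 3 of 3 replicates. The 19 erythroid genes, which include globins and their regulators, had 0.861 ± 0.123 (SD, n = 3) and 0.674 ± 0.213, lower in 2 of 3. In contrast, 557 genes of families not used in blood cells (olfactory and taste receptors, keratin-associated proteins, beta defensins) had 0.391 ± 0.0148 (SD, n = 3) without P1 and 0.412 ± 0.0221 with 10 U, higher in 3 of 3. These lists also differ in sequence, with a median G+C of 41.0% in the last and 57.3% in the ribosomal, proteasome and complex I genes together. No expression was measured in these samples, and these values are descriptions of lists with no test of their own.

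In the 237 ribosomal, proteasome and complex I promoters together, the density from −100 to −1 was 1.35 ± 0.0616 (SD, n = 3) scaled sites per kb without P1, 0.772 ± 0.243 with 1 U and 0.334 ± 0.0523 with 10 U, or 0.245 of the untreated value. From +1 to +100 it went from 1.52 to 0.523, whereas from +101 to +200 it was 1.07 ± 0.233 and 0.975 ± 0.139. Without P1 these promoters held 1.59 and 1.81 times the sites expected from sequence on either side of the start, where CpG-rich promoters as a whole held 0.768 and 0.823. In the families not used in blood cells the density from −100 to −1 was 0.422 ± 0.0476 (SD, n = 3) without P1 and 0.408 ± 0.0671 with 10 U. From +1 to +100 it was 0.450 and 0.500, and so no trough was seen there.

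**Figure D4:**
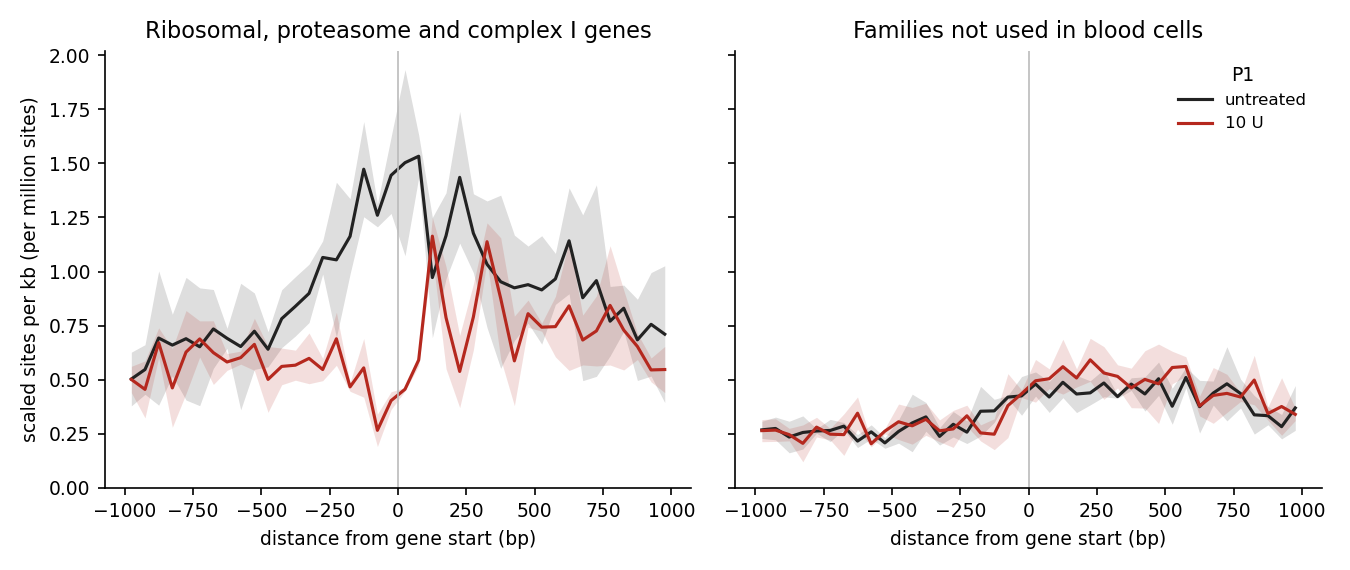
Scaled sites per kb by distance from the start, for 237 promoters of ribosomal, proteasome and complex I genes (left) and 557 promoters of families not used in blood cells (right), without P1 (black) and with 10 U (red); lines are means of 3 replicates and bands 1 SD. On the left the lines part around the start, from 1.35 to 0.334 over −100 to −1, and on the right they overlap.

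Single promoters were compared in a table of 25480 windows, 15218 of them promoters and the others 3′ ends, with at least 15 sites over all samples (edgeR quasi-likelihood test, replicate number as a block, Benjamini-Hochberg over all windows). At 10 U, 3 promoters passed as lower and none as higher. Of the 10262 windows at 3′ ends, 5 passed as higher and none as lower. The 3 promoters were thus the only windows that passed as lower, 0.0118% of all windows. In simulated data with some windows raised at 10 U, the test found 78% of those raised 8-fold and none of those raised 2-fold. Drops were not simulated, so whether a drop to 0.738 in a single promoter could be detected at this depth was not tested. At an unadjusted p under 0.05, 1253 promoters were lower at 10 U, or 8.23%, where 5.81% of all windows were, and 156 were higher, or 1.03%, where 1.56% of all windows were. The median log2 fold change of the promoters tested was −0.43, against −0.01 for the 3′ ends and −0.26 over all windows. It was −0.68 in CpG-rich promoters and 0.04 in CpG-poor ones. By list it was −1.03 for the proteasome subunits, −0.93 for complex I, −0.86 for the mitochondrial and −0.69 for the cytosolic ribosomal proteins, −0.79 for the histones and −0.00 for the families not used in blood cells. At 1 U the median was −0.18 with no promoter called (and 0 by DESeq2). At an unadjusted p under 0.05, 118 were higher and 467 lower, or 0.775% and 3.07%, where 1.08% and 2.55% of all windows were. At 0.01 U none was called either, and 210 were higher and 239 lower, or 1.38% and 1.57%, against 1.45% and 1.64% of all windows.

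The promoter of BPGM had 10, 6 and 4 sites in the untreated replicates and 6, 1 and 6 with 0.01 U. It had 5, 6 and 4 with 0.1 U, 5, 1 and 4 with 1 U and none in any replicate with 10 U. Its untreated rate was thus at least 6.71-fold higher than a floor of 3 sites over the 10 U samples (edgeR quasi-likelihood test, adjusted p = 0.0272). B3GALNT2 had 5, 7 and 5 sites without P1, 1, 0 and 2 with 1 U and none with 10 U, at least 5.70-fold lower (edgeR, adjusted p = 0.0466). HFE had 5, 11 and 5 sites without P1, 2, 3 and 1 with 1 U and 0, 1 and 0 with 10 U. That is a ratio of 21.1 with a 95% counting interval of 3.40 to 873 (edgeR, log2 fold change −4.09, SE 0.94, adjusted p = 0.0448). In all 3 promoters the 10 U samples lay below every untreated sample, and the flanks held 18 to 19 sites per kb over all samples. BPGM alone passed with TMM scaling and with no minimum of sites, none of the 3 passed when any 1 replicate number was left out, and DESeq2 called none.

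Some other promoters were alike in direction but did not pass with at least 15 sites. ZNF184, a zinc finger gene, had 6, 13 and 10 sites without P1 and 1, 2 and 1 with 10 U (log2 fold change −2.85, SE 0.67, edgeR adjusted p = 0.0532). CDC45, a part of the replicative helicase, had 15, 7 and 2 and then 1, 3 and 0, and PSMA5, an alpha subunit of the proteasome, had 10, 10 and 7 and then 3, 0 and 2. RPL5 of the large ribosomal subunit had 15, 11 and 4 and then 1, 1 and 2, TFB2M, a mitochondrial transcription factor, had 6, 4 and 11 and then 0, 1 and 1, and NDUFB5 of complex I had 12, 4 and 3 and then 0, 0 and 1. These last 3 were chosen after their values were seen, so their direction follows from that choice. They passed only when windows with at least 45 sites were tested, as did ZNF184 (edgeR adjusted p = 0.0183). That setting had 18 lower promoters at 10 U, or 0.46% of all its windows. By contrast MCM7, another helicase subunit, had 7, 3 and 2 sites without P1 and 5, 7 and 5 with 10 U. MYC had 7, 4 and 2 and then 4, 6 and 1, and KRTAP10-3, a keratin-associated protein of hair, had 7, 3 and 0 and then 3, 4 and 9.

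The promoters with the most sites lay largely where the flanks were dense as well. NUP214 had 349 sites over all samples (29, 20 and 25 without P1 and 17, 18 and 10 with 10 U), in flanks of 188.5 per kb, so it stood only 1.85-fold above them. QRFP, a neuropeptide gene on the same arm of chromosome 9, had 287 sites and 278 per kb in the flanks. The next were BCR with 259 and CCDC116 with 249 on chromosome 22, with flanks of 144.5 and 121.5 per kb, and PPIL2, PRAME, TUBA3FP and P2RX6 of the same chromosome had 193 to 213. K562 is known to carry many copies of the BCR-ABL1 fusion of these chromosome parts, and the part of copy number in these counts was not tested. The 9p21 genes that this line is known to have lost checked the label: MTAP and CDKN2A had 0 sites in every sample, and CDKN2B had 1 site in 1 sample. The limit that a count of 0 allows is 3 sites over all samples.

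PARP2 and BRAF stood apart from this pattern. PARP2 had 238 sites, 34.0 times the density of its flanks (7 per kb), and 216 of them were breaks of the non-template strand. Of these sites 218 lay in the crowded stretch from −450 to −241, 208 of them on the non-template strand. An antisense lncRNA gene, ENSG00000259001, covers all of this window before the start, and thus the whole crowded stretch. For that gene the strand called non-template here is the template strand. RefSeq lists RPPH1, the RNA of RNase P, as the neighbour on that side. RPPH1 could not be placed on hg19 here, so the crowded sites may lie in that gene, and whether they belong to the promoter of PARP2 was not tested. PARP2 had 30, 20 and 35 sites without P1, 14, 13 and 27 with 0.01 U, 16, 8 and 8 with 0.1 U and 3, 10 and 10 with 1 U. With 10 U it had 4, 35 and 5, so replicate 2 lay at the highest untreated value and the others far below. Its log2 fold change at 10 U was −1.13 (SE 0.32, edgeR adjusted p = 0.202), and without replicate 2 it was −2.63 (adjusted p = 0.000105). It was the only promoter called lower at 0.1 U and at 1 U when windows with any number of sites were tested (log2 fold change −1.37 and −1.64, edgeR adjusted p = 0.00882 and 0.00463, each 0.00265% of all windows). With at least 45 sites it was called lower at 0.1, 1 and 10 U, where 0.0255%, 0.0255% and 0.46% of all windows were. BRAF, a kinase of the MAPK pathway, was the only promoter called at 0.1 U, as higher (0.00392% of all windows), and 83 of its 116 sites came from replicate 3 of 0.1 U. The other samples had 0 to 5. In that replicate 79 of the sites lay from +201 to +400, 38 on the non-template and 41 on the template strand, with 162 ends in all, and the call was lost without replicate 3.

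**Figure D5:**
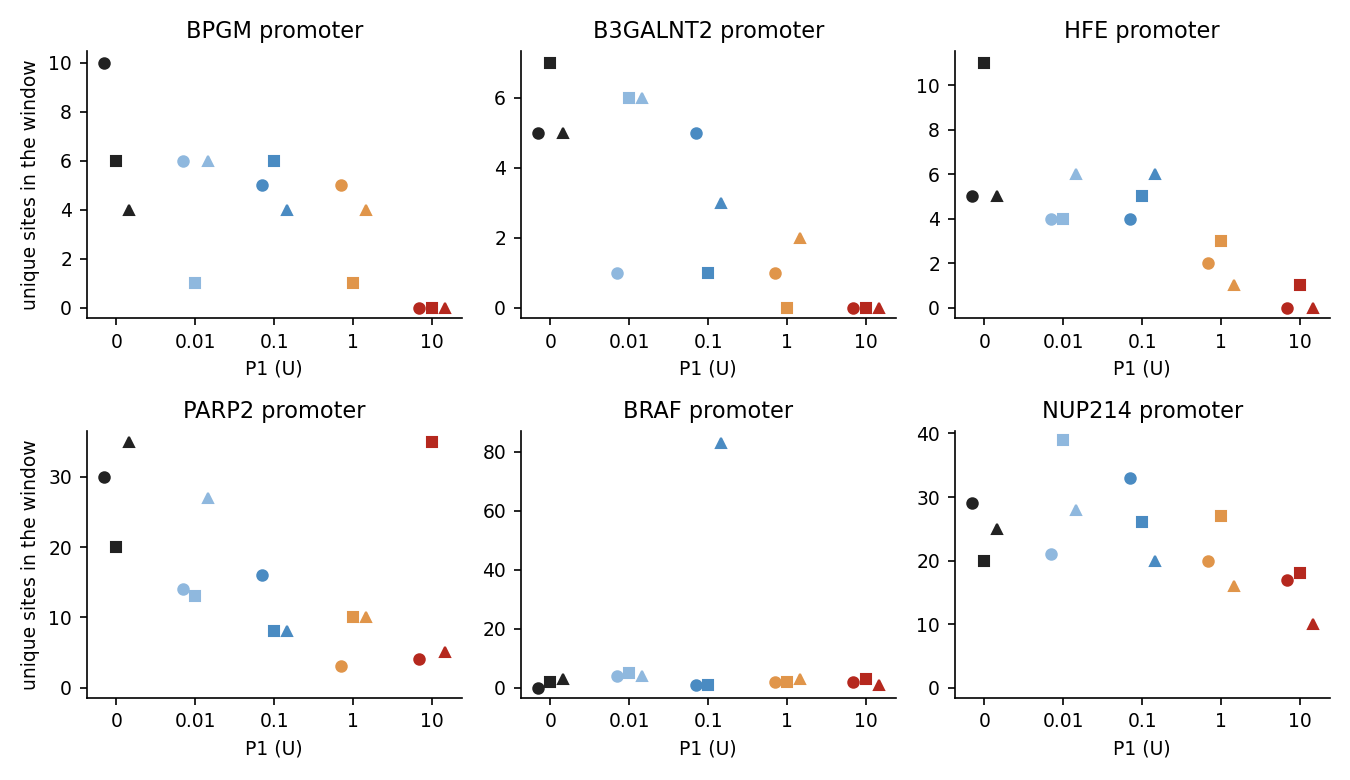
Unique sites in the promoter windows of 6 genes (y axes, each with its own scale) by amount of P1 (x axes, not to scale); circles, squares and triangles are replicates 1, 2 and 3. BPGM, B3GALNT2 and HFE lie at 0 or 1 with 10 U, PARP2 has 1 replicate at 35 with 10 U, BRAF has 1 sample at 83, and NUP214 spreads from 10 to 39.

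The deposited regions, runs of sites that SICER found denser in a treated sample than in the untreated sample of its number, were also least concentrated at promoters with 10 U. The share of regions that touched a promoter, relative to the share of the genome in these windows, was 4.60, 4.54 and 4.22 with 0.01 U, 4.86, 4.33 and 4.20 with 0.1 U, 2.96, 3.63 and 3.21 with 1 U and 2.40, 2.49 and 2.04 with 10 U. The values at 10 U lay below all others (10 U over the lower amounts 0.574, exact permutation test over the 12 lists, adjusted p = 0.00926). This is a share of longer lists, with 17217, 32031 and 13263 regions at 10 U against 6087 to 10545 at the lower amounts. The number of regions that touched a promoter was not lower throughout, with 273, 526 and 179 at 10 U against 119 to 311. A list marked 134 to 553 promoters, or 0.667% to 2.75% of them, and 76 to 470 of 18760 windows at 3′ ends, or 0.405% to 2.51%. Of all promoters, 17373 had a region in none of the 12 lists, 2257 in 1, 340 in 2, 88 in 3 and 22 in 4. NUP214 had a region in 11 lists, QRFP and CCDC116 in 8, and BCR and POLR2J3, a gene of an RNA polymerase II subunit with near-identical copies, were among 6 promoters with a region in 7. PARP2 and BRAF had one in 1 list each.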

How the data were processed

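Nuclear 3′-OH termini of 15 K562 samples were used, grouped by their titles into 5 amounts of P1 with 3 replicates each. The authors trimmed the read tails, aligned reads to hg19 (BWA 0.7.12 in the submitters' processing notes), left out termini beside T-rich sequence and deposited, for each position and strand, a count of its termini. For each treated sample the authors ran SICER (1.1) against the untreated sample of its number, and the deposited lists give each region with counts of sites, a ratio of treated over control, a p-value and an FDR, of which positions, counts and the FDR were used. PCR duplicates cannot be told from separate molecules, so each position and strand was counted once. Mitochondrial termini served only to settle the strand: the 3′ end of 7S DNA, which belongs to the H strand, is listed on the plus strand, so the broken strand is the opposite of the listed one.

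Windows came from GENCODE 44 lifted to hg19. Flanks and 3′ end windows exclude promoter bases. Expected sites used rates of the 4 bases around each eligible position in the rest of the genome. Spreads over amounts were tested on log2 values with exact permutation tests that exchange values within replicate numbers (14400 arrangements, smallest p 6.94e-05, or 576 for the 4 treated amounts), with Benjamini-Hochberg adjustment over 12 tests. Each factor is the geometric mean, over the 3 replicate numbers, of the treated over the untreated value. Windows were tested with edgeR 4.0.16 (quasi-likelihood, library size the sites of the sample, at least 15 sites, adjusted p under 0.05), with DESeq2 1.42.0 as an alternative. Tests were checked on simulated data. Depth was 2046116 to 3859475 sites per sample, and precision is the spread of 3 replicates. The interval for HFE is exact and covers counting error only, as does the floor of 3 sites.

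Alternatives were all termini, sites with at least 2 termini, no block, omission of each replicate number, equal depth, windows of 250 or 1000 bp on either side, promoters touching no other, other scaling and minimums of sites, and other rules for regions. The gene lists and members were chosen with earlier results of these data known. The start over outer promoter ratio and the values against sequence or G+C were chosen after seeing the data. Named genes are the 10 promoters with the most sites, called promoters, the 5 with a region in the most lists (ties in order of sites) and up to 4 members of each gene list with the most sites; RPL5, TFB2M and NDUFB5 were added after their values were seen.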

Additional observations from a re-analysis of the deposited data

Results flagged for a closer look

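The ratio of CpG-rich to CpG-poor promoter density with 10 U over untreated was 0.6003. It is listed because the ratio of both classes differed over the 5 amounts (exact permutation test, adjusted p = 0.00333). At 10 U, which was not tested alone, it was lower in 3 of 3 replicates. The ratio of promoter to 3′ end density with 10 U over untreated was 0.748, and this ratio likewise differed over the amounts (exact permutation test, adjusted p = 0.00417), with lower values at 10 U in 3 of 3 replicates. No group had 4 or more samples, so single samples were not tested as outliers.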

How the results depend on the processing

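Values are 10 U over untreated (regions: over lower amounts), and 79 of 109 alternatives kept direction and side of the threshold. Without 1 replicate number, exact tests reach 0.00833 at best (regions 0.0417), and some then did not pass: promoter enrichment 0.734 to 0.773, strand ratio upstream 0.998 to 1.01 (reversed without replicate 2), downstream 1.07 to 1.09, 3′ end over flank 0.975 to 0.985, regions 0.562 to 0.596, terminal base 0.974 to 0.987, start over outer promoter 0.867 to 0.887 in CpG-poor promoters and 0.494 to 0.546 for CpG-rich over CpG-poor. The upstream strand ratio was 1.11 with sites of at least 2 termini (not passing) and reversed to 0.99965 at equal depth and 0.977 at 250 bp. The downstream ratio did not pass with at least 2 termini (1.06), at equal depth (1.08) or at 1000 bp (1.05). The 3′ end over flank was 0.989 with all termini (not passing) and reversed to 1.003 with at least 2 termini. The terminal base was 0.985 with all termini (p = 0.05, exact permutation test). Promoter calls over all amounts numbered 4, against 2 with TMM, 21 with at least 45 sites (19 promoters, PARP2 at 3 amounts), 0 with DESeq2 and 0 to 2 without 1 replicate number. The cause was not tested, apart from fewer samples in the latter. Counts per eligible position give these same values by construction. Against the sequence-expected sites, values ran closer to 1 (promoter enrichment 0.873, over flank 0.824), except 3′ end over flank (0.975), and all passed.

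Without the replicate block the planned results passed as before, with 4 promoter calls (no replicate block). Replicate numbers were kept as a block because treated samples are compared with the untreated sample of their number. Deviations of same-numbered samples did not correlate (median r −0.00212 over 30 pairs, against 0.000656 over 60 pairs of different numbers). No pair of either kind had an r above 0.0316, so whether same-numbered samples were handled together cannot be told from this. Few sites per promoter limit single-promoter calls. Of simulated rises at 10 U, the test found 78% at 8-fold, 5% at 4-fold and 0% at 2-fold, and drops were not simulated. PARP2, with its many sites, was called at a log2 fold change of −1.11 with 10 U among windows with at least 45 sites.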
